A study of Homo sapiens with 4 samples.

Results

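RASGRP1, RASGRP2, RASGRP3 and RASGRP4, the Ras guanyl-releasing proteins, were examined together with the exchange factors SOS1 and SOS2 and the Ras GTPase-activating proteins RASA1 and NF1 in OPM2 cells, an established human multiple myeloma line. The 8 genes were chosen by name, with earlier results of these data known, in which RASGRP3 already stood among the largest increases. Of 18377 genes represented by a probe set with 1 annotated gene, 7 of the 8 were found, and RASA1 was not analysed here. The probe set with the highest mean over the 4 arrays stood for each gene. Cells received VS-5584 (also SB2343), a small molecule that blocks mTOR and the class I PI3 kinases, at 123 nM according to the sample labels (125 nM in the design text), or the drug solvent DMSO, and both groups were harvested at 24 h. An IC50 time of 48 h is also recorded for the samples, later than the harvest. Each group had 2 arrays. All cultures were of a single tumour line grown in serum-containing medium, so no other line or normal plasma cell was compared, and the titles number the replicates as biological but do not describe how cultures were separated.

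Ras proteins relay signals when they hold GTP and rest when they hold GDP. Exchange factors open Ras so that GTP can enter, and GTPase-activating proteins speed the return to the GDP form. SOS1 and SOS2 are brought to activated growth factor receptors by the adaptor GRB2, whereas the RASGRP proteins carry a C1 domain and are recruited, directly or through partners, to membranes where phospholipase C has made the lipid diacylglycerol. RASGRP1 is best known from T cells, RASGRP2 from platelets, where it acts on the related GTPase Rap1, RASGRP3 from B cells, and RASGRP4 from mast cells and other myeloid cells. In lymphocytes this family links antigen receptors to Ras and so to the RAF, MEK and ERK kinases.

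The bases just before a start site are shown for the RASGRP gene with the largest difference after VS-5584 and for one whose groups overlapped to let their base composition be compared; a relation between composition and response was not tested. Both stretches end at the base before the outermost RefSeq start of the gene and come from RefSeq sequence of GRCh38.p14, chr2:33436098-33436347 on the plus strand for RASGRP3 and chr15:38564815-38565064 on the minus strand for RASGRP1. They read 5′ to 3′ with each CG pair in capitals.
RASGRP3: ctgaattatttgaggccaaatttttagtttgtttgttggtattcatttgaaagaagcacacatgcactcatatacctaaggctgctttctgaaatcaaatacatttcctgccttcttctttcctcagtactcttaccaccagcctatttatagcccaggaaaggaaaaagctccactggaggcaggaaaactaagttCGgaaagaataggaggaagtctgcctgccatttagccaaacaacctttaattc
RASGRP1: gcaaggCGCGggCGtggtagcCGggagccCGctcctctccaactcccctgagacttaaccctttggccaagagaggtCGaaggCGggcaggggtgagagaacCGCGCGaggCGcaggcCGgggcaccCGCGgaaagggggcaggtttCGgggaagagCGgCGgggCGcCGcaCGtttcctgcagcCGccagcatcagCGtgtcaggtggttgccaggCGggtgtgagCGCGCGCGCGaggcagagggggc
The RASGRP3 stretch held 1 CG pair with 39.6% G and C, and the RASGRP1 stretch held 28 with 71.6%. Over 35116 such stretches of 250 bases the median was 11 CG pairs and 58% G and C. RASGRP3 had 4 listed starts, and the other 3 held 2, 8 and 2 CG pairs. The RASGRP2 and RASGRP4 stretches, whose groups overlapped as well, held 13 and 9 CG pairs with 63.6% and 57.2% G and C, nearer to the median than either stretch shown. The array does not tell which start was used.

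RASGRP3 was higher in VS-5584 cells. Its log2 intensity (probe set 8041422) was 6.87 and 7.35 on the VS-5584 arrays, against 5.97 and 6.12 on the DMSO arrays. Both VS-5584 arrays lay above both DMSO arrays, with 0.75 log2 units between the nearest of them. The group means were 7.11 ± 0.35 in VS-5584 cells and 6.04 ± 0.10 in DMSO cells (SD, n = 2 each), a log2 difference of 1.07 ± 0.17 (SE of the limma fit over all genes), or 2.10-fold. Against the DMSO mean the excess was 1.77-fold on VS-5584 replicate 1 and 2.48-fold on VS-5584 replicate 2, so its size differed between the cultures while its direction did not. As a measure that a scaling factor for an array leaves as it is, the probe set was brighter than 69.6% and 79.7% of genes on the VS-5584 arrays and than 51.6% and 55.6% on the DMSO arrays. These values are a description, since RASGRP3 had been picked out in these data. In such bulk RNA, more cells that express a gene and more of its RNA per cell cannot be told apart.

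The 3 other RASGRP genes were dim in both groups. RASGRP1 stood at log2 intensities of 5.49 and 5.27 on the VS-5584 arrays, against 5.35 and 5.47 on the DMSO arrays. RASGRP4 stood at 5.25 and 5.36 in VS-5584 cells, against 5.32 and 5.25 in DMSO cells. Both genes overlapped between groups and lay below the level of 5.61 under which the dimmest 40% of genes were left out of testing, so their log2 differences of -0.03 and 0.02 carry no test. RASGRP2, with a mean of 5.66 just above that level, stood at 5.61 and 5.80 in VS-5584 cells, against 5.66 and 5.56 in DMSO cells. Its groups overlapped too, with a log2 difference of 0.09 and a 95% interval of -0.22 to 0.40 from the limma fit. The intensities of these 3 probe sets ran from 38.0 to 55.9 on a table whose lowest values are near 20, and no background measure was used, so whether these genes were expressed in OPM2 cells could not be judged. RASGRP3 stood at 62.7 and 69.3 on the DMSO arrays, not far above these values. Its expression in DMSO cells could therefore not be judged either.

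The receptor-coupled exchange factors and NF1 were all above the level used for testing. SOS1 had log2 intensities of 10.51 and 10.50 on the VS-5584 arrays, against 10.38 and 10.26 on the DMSO arrays. Its groups did not overlap, although the difference was small, at 0.18 (95% interval -0.11 to 0.48), or 1.14-fold. The values of SOS1 were close to equal in both VS-5584 cultures, with 1.14-fold on replicate 1 and 1.13-fold on replicate 2 against the DMSO mean. SOS2 stood at 7.58 and 7.26 in VS-5584 cells, against 7.57 and 7.32 in DMSO cells, and overlapped. Its replicates lay 0.32 and 0.25 log2 units apart within the VS-5584 and DMSO groups, more than the difference of -0.02 between the group means (95% interval -0.38 to 0.33).

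NF1, neurofibromin, which returns Ras to its GDP form, had log2 intensities of 8.23 and 8.09 in VS-5584 cells, against 8.14 and 8.26 in DMSO cells. The groups overlapped, with a difference of -0.04 (95% interval -0.35 to 0.26). A further 2 probe sets named NF1 carried the same values as each other on every array, 6.61 and 6.60 in VS-5584 cells against 6.67 and 6.69 in DMSO cells. They are therefore 1 measurement, and pseudogene copies of NF1 make its signal uncertain. Their difference was -0.07, close to that of the brighter probe set.

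**Figure D1:**
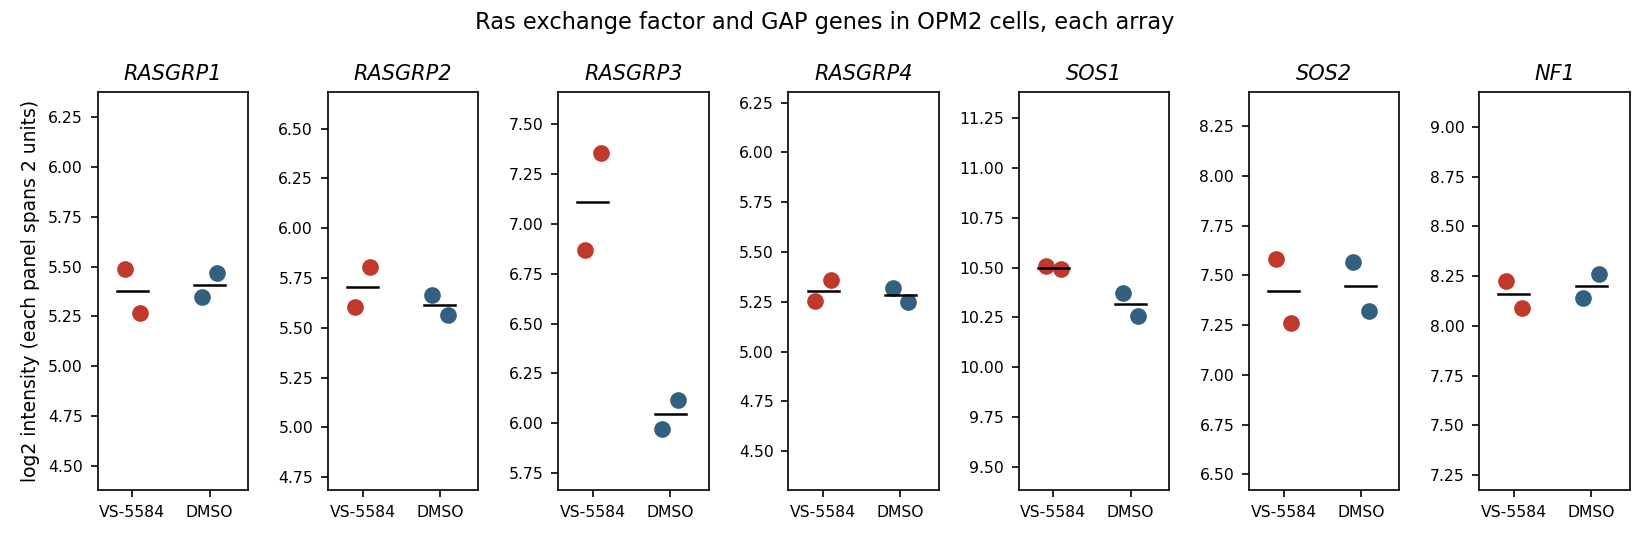
Log2 intensity (vertical axis, each panel spanning 2 log2 units) of the 7 genes on every array, with VS-5584 in red on the left and DMSO in blue on the right; points are arrays and black bars are group means of 2. The RASGRP3 points lie at 6.87 and 7.35 in VS-5584 cells against 5.97 and 6.12 in DMSO cells, SOS1 is separated by a small gap, and the other 5 genes overlap.

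Limma called 0 of the 5 tested members at an adjusted p under 0.05, beside 0 of 11026 genes tested (0%). At an unadjusted p under 0.05 RASGRP3 was the 1 member, beside 10.4% of all tested genes in either direction. Without limma's shared variance, an ordinary pooled-variance test called 0 of all tested genes, and 492 reached an unadjusted p under 0.05, with 0 members among them. Two-sided adjusted p-values of limma for SOS1, RASGRP2, NF1 and SOS2 were 0.631, 0.825, 0.920 and 0.971. With 2 arrays against 2, an exact permutation test of a single gene cannot go below p = 0.333. RASGRP3 and SOS1 were the 2 tested members whose VS-5584 arrays both lay above the DMSO arrays, beside 14.7% of all tested genes, and no tested member lay wholly below, beside 29.2%. RASGRP3 had the third largest increase of all tested genes, and 4 genes (0.0363%) were over 2-fold higher.

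VS-5584 replicate 2 stood apart from the other arrays. Its log2 values spanned 1.74 units between the quartiles of all probe sets, against 1.94 on VS-5584 replicate 1 and 1.95 and 1.93 on the DMSO arrays. The median tested gene differed from the DMSO mean by -0.14 on this array and by -0.0022 on VS-5584 replicate 1. RASGRP3 differed by 1.31 on VS-5584 replicate 2 and by 0.82 on VS-5584 replicate 1, so it was higher on either array alone. Without VS-5584 replicate 2, SOS2 and NF1 differed by 0.14 and 0.03, with the sign turned. They also turned positive after quantile normalization (0.10 and 0.08) and cyclic loess (0.11 and 0.10), whereas RASGRP3 (1.12 and 1.13) and SOS1 (0.23 and 0.27) stayed positive under both.

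**Figure D2:**
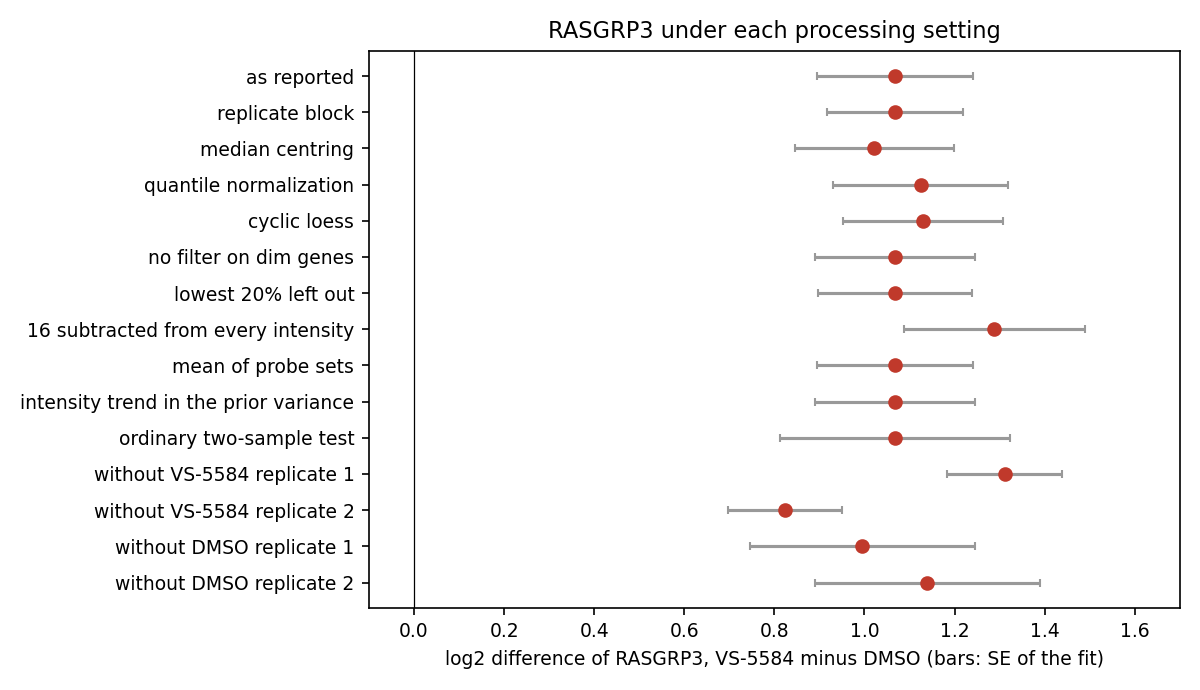
Log2 difference of RASGRP3, VS-5584 minus DMSO (horizontal axis), as reported and under each alternative; points are the differences and bars the SE of the fit. All settings shown lie between 0.82, without VS-5584 replicate 2, and 1.31, without VS-5584 replicate 1.

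The cells were checked for the identity that the label gives them. All 9 plasma cell markers examined, among them SDC1, PRDM1 and IRF4, were above the level used for testing. The B cell factor PAX5 was the 1 of 5 mature B cell markers above that level, at a log2 intensity of 5.71 in VS-5584 cells and 5.62 in DMSO cells, close to it. CD28, which plasma cells can carry, was the 1 of 7 T cell markers above it, GP9 the 1 of 5 platelet markers, and none of 7 myeloid and mast cell markers were. The summed intensity of the mature B cell markers was 186 to 201 on the VS-5584 arrays and 184 to 189 on the DMSO arrays, and that of the T cell markers 710.1 to 744 on the VS-5584 arrays and 675 to 690.1 on the DMSO arrays. CD28 carried most of the T cell sum, and without it the other 6 summed to 216 to 229 on the VS-5584 arrays and 209 to 221 on the DMSO arrays. The plasma cell sum was 12826 to 13727 on the VS-5584 arrays and 11831 to 12068 on the DMSO arrays. The myeloid and mast cell sum was 228 to 238 on the VS-5584 arrays and 220.1 to 223 on the DMSO arrays, and the platelet sum 206 to 217 on the VS-5584 arrays and 198 to 205 on the DMSO arrays. The full T cell, plasma cell, myeloid and platelet sums thus did not overlap between groups and were higher with VS-5584. The median intensity of all probe sets was also higher with VS-5584, by a narrow margin. It was 50.022 and 52.541 on the VS-5584 arrays, against 49.337 and 50.002 on the DMSO arrays. The upper quartile went the other way, at 115.4 and 106.2 on the VS-5584 arrays, against 115.7 and 118.3 on the DMSO arrays. The sums were not adjusted for such differences between arrays, and their part in the RASGRP3 difference was not tested. Of 6 epithelial and stromal markers 3 were above the level, and their sum was 312 to 413 in VS-5584 cells and 296 to 324 in DMSO cells. CD3D, CD3E and CD3G, which define T cells, and MS4A1, a mature B cell antigen, were all below it. 

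The rest of the pathway was described from 9 lists covering 83 genes, of which 72 had a probe set with 1 gene and 57 were tested. Limma called 0 of the 57 over all genes, and 4 higher and 7 lower genes had an unadjusted p under 0.05, or 7.02% and 12.3% of the 57, beside 1.49% and 8.93% of all tested genes in those directions. Of the 57, 34 were lower on average, with a median log2 difference of -0.07, against 6917 of 11026 tested genes (62.7%) and a median of -0.06. The medians on VS-5584 replicates 1 and 2 were -0.02 and -0.16 for the pathway genes and -0.0022 and -0.14 for all tested genes. In their medians the pathway genes thus lay near all tested genes, while the share with an unadjusted p under 0.05 was 19.3% beside 10.4%. That count depended on the processing. With all 4 arrays it ran from 4 by the ordinary test to 15 with the replicate number as a block, beside 492 and 1722 of 11026 tested genes.

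Among the Ras and Rap GTPases, the switches on which these exchange factors act, 2 of 5 tested genes were higher and 3 lower, with a median of -0.00015, which was 0.14 after cyclic loess, 0.11 without DMSO replicate 1 and -0.11 without DMSO replicate 2. RAP1A, a GTPase of integrin activation and a substrate of RASGRP2 and RASGRP3, had log2 intensities of 6.60 and 6.36 in VS-5584 cells, against 6.85 and 6.96 in DMSO cells. Its difference was -0.42 ± 0.14 (SE; limma adjusted p = 0.391). HRAS differed by -0.42 ± 0.20 (0.504), but its groups overlapped, with -0.12 on VS-5584 replicate 1 and -0.71 on VS-5584 replicate 2.

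Of the other exchange factors 3 of 5 tested were higher, with a median of 0.06. Without VS-5584 replicate 1 the median was -0.03 with 2 higher, and without VS-5584 replicate 2 it was 0.15 with 4 higher, so the list has no settled direction. RASGRF1, a calcium-regulated Ras exchange factor known from neurons, stood at 5.996 and 6.16 in VS-5584 cells, against 5.75 and 5.72 in DMSO cells, a difference of 0.34 ± 0.13 (SE; limma adjusted p = 0.440). RAPGEF2, which acts on Rap, stood at 9.57 and 9.24 in VS-5584 cells, against 9.09 and 9.04 in DMSO cells, a difference of 0.34 ± 0.15 (0.480). The groups overlapped for neither gene. Of the genes that restrain Ras, 6 of 7 tested were lower, with a median of -0.16, beside 62.7% and -0.06 for all tested genes. The list median was -0.11 after cyclic loess and -0.21 after median centring. It was larger in size without VS-5584 replicate 1 (-0.30) or DMSO replicate 1 (-0.29), with 6 of 7 lower under each setting. The median of all tested genes was -0.01, -0.11, -0.14 and -0.06 under those settings, in that order. RASA2 and RASAL2, both GTPase-activating proteins for Ras, differed by -0.38 ± 0.17 and -0.28 ± 0.13 (SE; limma adjusted p = 0.481 and 0.504). RASA2 differed by -0.16 on VS-5584 replicate 1 and -0.60 on VS-5584 replicate 2, and RASAL2 by -0.27 and -0.30.

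Among the adaptors that bring SOS to receptors, 1 of 6 tested genes was higher and 5 lower, beside 62.7% of all tested genes lower. The list had a median of -0.03. Without DMSO replicate 1 the median was -0.13, and without DMSO replicate 2 it turned to 0.01 with 4 higher and 2 lower. GAB1, a docking protein for PI3 kinase and the phosphatase SHP2, was the higher one, at 9.18 and 9.04 in VS-5584 cells against 8.78 and 8.71 in DMSO cells. Its difference was 0.37 ± 0.13 (SE; limma adjusted p = 0.417), and the groups did not overlap. GRB2, which carries SOS, differed by -0.31 ± 0.17 (0.542), with -0.09 on VS-5584 replicate 1 and -0.53 on VS-5584 replicate 2. Downstream of Ras, 4 of 5 tested kinase and scaffold genes were lower, beside 62.7% of all tested genes. Their median was -0.20, which was -0.02 without VS-5584 replicate 2 and -0.37 without VS-5584 replicate 1. For all tested genes the median was -0.06, and -0.0022 and -0.14 under those settings. MAP2K1, the kinase MEK1, differed by -0.35 ± 0.20 and overlapped (0.564), and MAPK3, the kinase ERK1, by -0.20 ± 0.15 (0.649). On VS-5584 replicate 1 alone both were near the DMSO mean, at -0.02 and -0.03.

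The genes that make and remove diacylglycerol, the lipid to which RASGRP3 responds, went in both directions. Of 5 tested phospholipases C 3 were lower, with a median of -0.07, and of 6 tested diacylglycerol kinases 2 were lower, with a median of 0.04. Neither sign held throughout, since the phospholipase median was 0.0029 with 3 of 5 higher without VS-5584 replicate 2, and the kinases split into 3 higher and 3 lower after median centring (median -0.0023) and without DMSO replicate 2. PLCG1, the phospholipase that acts behind receptor tyrosine kinases, stood at 7.04 and 6.59 in VS-5584 cells, against 7.25 and 7.15 in DMSO cells. Its difference was -0.39 ± 0.17 (SE; limma adjusted p = 0.470). PLCG2, its counterpart in B cells, differed by 0.17 ± 0.21 with overlapping groups (0.782) and was singled out after its values were seen. It differed by -0.14 without DMSO replicate 1 and by 0.47 without DMSO replicate 2. PLCB1 differed by -0.18 ± 0.18 (0.732) and turned to 0.06 without VS-5584 replicate 2. The kinases DGKE and DGKD, which turn diacylglycerol into phosphatidic acid, differed by -0.33 ± 0.15 and -0.20 ± 0.15 (limma adjusted p = 0.476 and 0.659). DGKE differed by -0.19 on VS-5584 replicate 1 and -0.47 on VS-5584 replicate 2, and DGKD by -0.01 and -0.39.

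Other proteins that bind diacylglycerol or its analogues through a C1 domain had 6 of 8 tested genes lower, beside 62.7% of all tested genes. Their median was -0.20, beside -0.06. CHN1, a chimaerin that switches off the GTPase Rac, stood at 6.82 and 6.06 in VS-5584 cells, against 7.37 and 7.03 in DMSO cells, a difference of -0.76 ± 0.23 (SE; limma adjusted p = 0.369). PRKCD, protein kinase C delta, stood at 7.39 and 6.99 in VS-5584 cells, against 7.61 and 7.83 in DMSO cells, a difference of -0.53 ± 0.17 (0.371). Both genes lay below the DMSO range on each VS-5584 array. The list median was -0.33 on VS-5584 replicate 2 and -0.11 on VS-5584 replicate 1, and -0.20 after cyclic loess. For all tested genes these medians were -0.14, -0.0022 and -0.01. The lower values of the list stand beside the higher RASGRP3, which also binds diacylglycerol. The difference between RASGRP3 and this list was not tested.

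Genes that respond to ERK had 7 of 10 tested members higher, with a median of 0.09, which was 0.04 without VS-5584 replicate 2 or after median centring and 0.05 without DMSO replicate 2. PHLDA1 stood at 6.42 and 6.45 in VS-5584 cells, against 6.14 and 6.05 in DMSO cells, and ETV5 at 5.97 and 5.71 in VS-5584 cells, against 6.18 and 6.34 in DMSO cells, so the pair named by smallest p went opposite ways. Their differences were 0.34 ± 0.13 and -0.42 ± 0.15 (SE; limma adjusted p = 0.426 and 0.402). Of the 10 genes 4 lay wholly above the DMSO arrays and 3 wholly below, beside 14.7% and 29.2% of all tested genes. The 3 were ETV5, DUSP6 (-0.18) and SPRY2 (-0.17), and the last 2 were named after their values were seen. Among the 7 higher genes DUSP4 differed by only 0.0023. DUSP4 had a mean of 7.51 in both groups. The other tested genes of this list were dim, with group means from 5.53 (DUSP6, VS-5584 cells) to 6.44 (PHLDA1, VS-5584 cells). No background measure was used, so whether these dim genes were expressed could not be judged. ERK activity was not measured here.

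**Figure D3:**
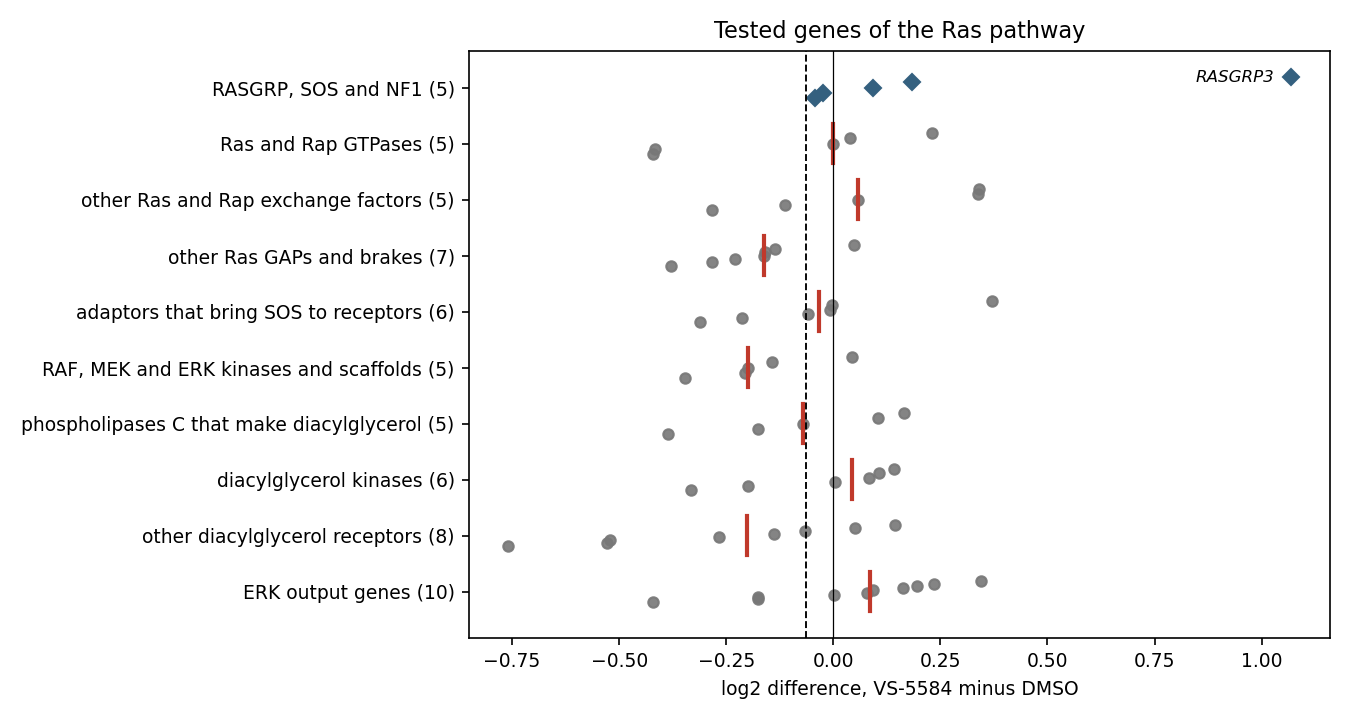
Log2 difference, VS-5584 minus DMSO (horizontal axis), of each tested gene in the 9 pathway lists (grey points, red bar at the list median) and of the 5 tested members (blue diamonds, top row); numbers in parentheses are genes tested, the dashed line is the median of all tested genes (-0.06). RASGRP3 lies at 1.07, while the listed genes run from -0.76 (CHN1) to 0.37 (GAB1).

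The genes whose profile over the 4 arrays was most like that of RASGRP3 were found by the root mean square difference between mean-centred log2 values. The 5 nearest were KDM5B, a histone demethylase, at 0.13, AMPD1, an AMP deaminase, at 0.14, SLC22A9, an organic anion transporter, at 0.15, MUC13, a membrane mucin, at 0.15, and BTG1, an antiproliferative factor, at 0.15. The median of this measure over all other tested genes was 0.62. The differences of the 5 ran from 0.77 for BTG1 to 1.30 for AMPD1, and each was larger on VS-5584 replicate 2 than on replicate 1, as for RASGRP3. With 4 arrays, likeness says mainly that a gene was higher by a similar amount in the same group.

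**Figure D4:**
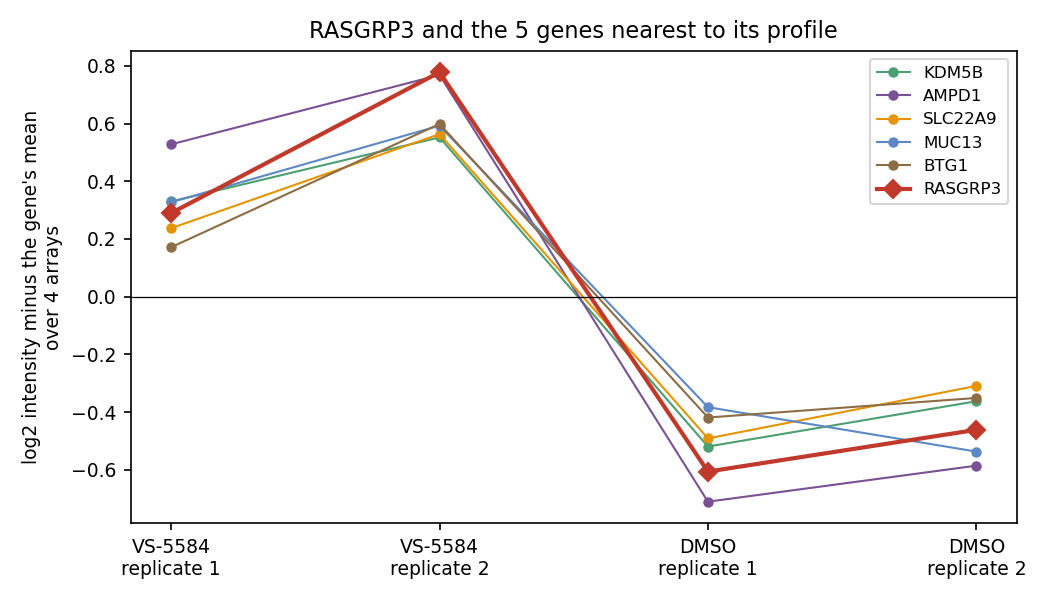
Log2 intensity minus each gene's mean over 4 arrays (vertical axis) on the VS-5584 and DMSO arrays for RASGRP3 (thick red line) and the 5 genes nearest to its profile. All 6 genes are above their mean on both VS-5584 arrays and below it on both DMSO arrays.

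The 300 bases around each listed start, 250 before and 50 after, were searched on both strands in RefSeq sequence for the forkhead motif GTAAACA (or TGTTTAC), to which FOXO factors bind when PI3 kinase signalling is low, and for the E-box CACGTG. Of all 35116 windows 3.42% held the forkhead motif and 7.26% the E-box. Over the 12 windows of the 8 genes, 4 of them for RASGRP3, neither was found, which says only that these letters are not in these windows.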

How the data were processed

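Total RNA from 4 OPM2 cultures was column-purified and biotin-labelled cDNA was made with a whole-transcript kit, per the labels' protocols. The deposited table holds intensities on a linear scale, 28869 probe sets by 4 arrays. The submitters' processing notes name RMA, and the step from RMA to linear values, the software and the genome build are not given in the sources used here. Intensities were turned into log2 values and not normalized again. Names came from the platform annotation, in which 19310 probe sets had 1 gene, 1752 several and 7807 none listed, and 19279 were updated through the RefSeq table of GRCh38.p14. The 40% of 18377 genes with the lowest mean (intensity below 48.9) were not tested. The other 11026 went into limma 3.58.1 under R 4.3.3 (lmFit, then eBayes; two-sided, Benjamini-Hochberg adjustment over all tested genes, threshold 0.05). The p-values rest only on the spread between these samples. Limma draws each gene's variance toward a value shared by all tested genes, with 7.42 prior degrees of freedom. The number of arrays limits the precision.

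Named genes are the members, the 2 tested genes of each pathway list with the smallest unadjusted p, and the 5 nearest to RASGRP3, with any exception stated. The members and lists were chosen with earlier results of these data known. The code was checked on simulated data. The alternatives were the replicate number as a block, 3 scalings, 2 filters on dim genes, 16 subtracted from every intensity, averaged probe sets, an intensity trend in the prior variance, an ordinary test and leaving out each array. Figures were drawn with matplotlib 3.10.9.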

Additional observations from a re-analysis of the deposited data

How the results depend on the processing

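The log2 difference of RASGRP3 was positive under all 14 alternatives, from 0.82 to 1.31 when 1 array was left out and from 1.02 (median centring) to 1.29 (16 subtracted from every intensity) with all 4 arrays. It ranked between the third and the seventh largest increase. With all 4 arrays it was the 1 member limma called at an adjusted p under 0.05 in 2 of 10 alternatives. These were the replicate block and the intensity trend. With the block the SE was 0.15 for each tested member, so that call follows the size of the difference. RASGRP3 had been picked in these data with that size known. The genes called over the whole table, 0 as reported, were 432 with the replicate block, 2 after quantile normalization, 16 after cyclic loess, 2 after subtracting 16, 80 with the intensity trend and 2 to 2636 when 1 array was left out. Deviations of same-numbered replicates correlated at 0.156 over genes, and with 2 pairs and no label of a shared culture this does not show that the numbers pair the samples. With the block, 3 of 57 tested pathway genes (CHN1, PRKCD and PRKD2) were called, beside 432 of all 11026 tested genes. Pathway genes with an unadjusted p under 0.05, 11 as reported, numbered 6 after median centring, 4 by the ordinary test and 1 to 25 when 1 array was left out (25 without VS-5584 replicate 1, 5 without DMSO replicate 1, 1 without DMSO replicate 2). At an unadjusted p under 0.05 there were 0 members by the ordinary test, 2 after cyclic loess (RASGRP3 and SOS1) and 1 under each of the other alternatives. SOS1 stayed positive, from 0.13 to 0.27. RASGRP1, RASGRP2, RASGRP4, SOS2 and NF1 took both signs across the alternatives, between -0.19 and 0.19. For these the cause was not tested. An added constant in the table would make the folds of the dim RASGRP probe sets too small.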
